A study of Gallus gallus with 12 samples.

Results

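The unfolded protein response and the amino acid response were examined through 9 genes that hold their sensors, transcription factors and targets. The sensors were ERN1, EIF2AK3 and ATF6, the transcription factors were XBP1, ATF4 and ATF3, and the targets were ASNS, CHAC1 and HERPUD1. A gene was taken when the symbol given in the deposited tables equalled one of these names, which gave 9 of 18332 genes, each with 1 gene identifier. All libraries came from Xinghua chickens labelled as 8 weeks old, birds with an intact growth hormone receptor that the study calls normal chicken. The paper describes the birds as female and 8 weeks old when feeding began, so they were older when sampled. The HN group received the high-fat diet (HFD) and the NN group the normal diet, and liver and abdominal fat were sequenced from both, with 3 libraries in each of the 4 groups. By the paper's description the HFD held more fat and slightly less protein and carbohydrate than the normal diet, so HN and NN differ in more than fat. Sex-linked dwarf birds were not analysed here. The labels do not say whether liver and fat of the same number came from 1 bird.

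The endoplasmic reticulum (ER) folds secreted and membrane proteins, and the hepatocyte, which releases most plasma proteins, is one of the cells that load it most. When unfolded protein accumulates, IRE1 (the product of ERN1) splices the mRNA of XBP1, PERK (the product of EIF2AK3) phosphorylates the translation factor eIF2 and so favours translation of ATF4, and ATF6 leaves the ER to be cut into a free transcription factor. The kinase GCN2 (the product of EIF2AK4) reaches eIF2 and ATF4 when amino acids are short. Splicing, phosphorylation and cleavage are not seen in a gene-level RNA value, so the values here describe transcript levels only.

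Levels are in FPKM, fragments scaled for the length of the transcript and for the number of mapped fragments, which lets levels be set against each other between genes. The names of 2 of the 3 sensors need a caution. The gene identifier that carries the symbol ATF6 in the deposited tables is named ATF6B in RefSeq (assembly GRCg7b), and the one that carries ERN1 is named ERN2 there. The identifier that RefSeq names ERN1 stands in the tables as LOC417414 and is given beside it. No such entry was looked up for ATF6, so the values under ATF6 are those of the gene named ATF6B there. The other 7 genes had the same name in both.

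The tissues carried their defining markers. ALB, the albumin gene, lay between 19544 and 55672 FPKM in the 6 livers and between 19.4 and 96.5 FPKM in the 6 fats, while FABP4, an adipocyte fatty acid-binding protein, lay between 2.44 and 3.87 FPKM in livers and between 10767 and 15730 FPKM in fats. Between 10735 and 11272 genes per liver and between 12104 and 12412 per fat reached 1 FPKM. The files give no read counts, so the depth behind a value is unknown here. HN replicate 2 stood apart in both tissues. Its median correlation with the other libraries of its tissue was 0.939 in liver and 0.943 in fat, against 0.953 to 0.968 for the other livers and 0.966 to 0.969 for the other fats, and results that rest on it are given with and without it. In these whole-tissue samples, fewer cells of a type and less RNA per cell cannot be told apart. By the paper, 3 livers and 3 abdominal fats of each group were chosen for sequencing, so the libraries of a group were taken as different birds. The labels do not show how the libraries were prepared, and p-values measure the spread between these libraries only.

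The 9 genes spanned a wide range of levels. In livers of NN birds the highest mean was that of ATF4, with 696 ± 100.1 FPKM (SD, n = 3), followed by XBP1 with 282 ± 164 FPKM. ASNS, CHAC1 and HERPUD1 came next with 48.5 ± 12.5, 36.3 ± 10.3 and 35.1 ± 9.68 FPKM, and the order among these 3 lay within their spread. ATF6, EIF2AK3 and ERN1 followed at 9.33 ± 1.70, 9.22 ± 0.816 and 7.57 ± 1.53 FPKM, also within their spread of each other. ATF3 was lowest at 1.40 ± 0.406 FPKM. In fats of NN birds ATF4 was again highest, at 295 ± 31.6 FPKM, and XBP1 second, at 71.7 ± 14.9 FPKM. There ATF6, HERPUD1 and ASNS lay together at 19.5 ± 0.497, 19.0 ± 1.68 and 17.6 ± 4.80 FPKM. ERN1 had 9.38 ± 1.61 and EIF2AK3 7.35 ± 0.731 FPKM. In fat the 2 lowest genes were ATF3 with 3.41 ± 0.122 and CHAC1 with 1.95 ± 0.595 FPKM, so that CHAC1 was among the middle genes in liver and last in fat.

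**Figure D1:**
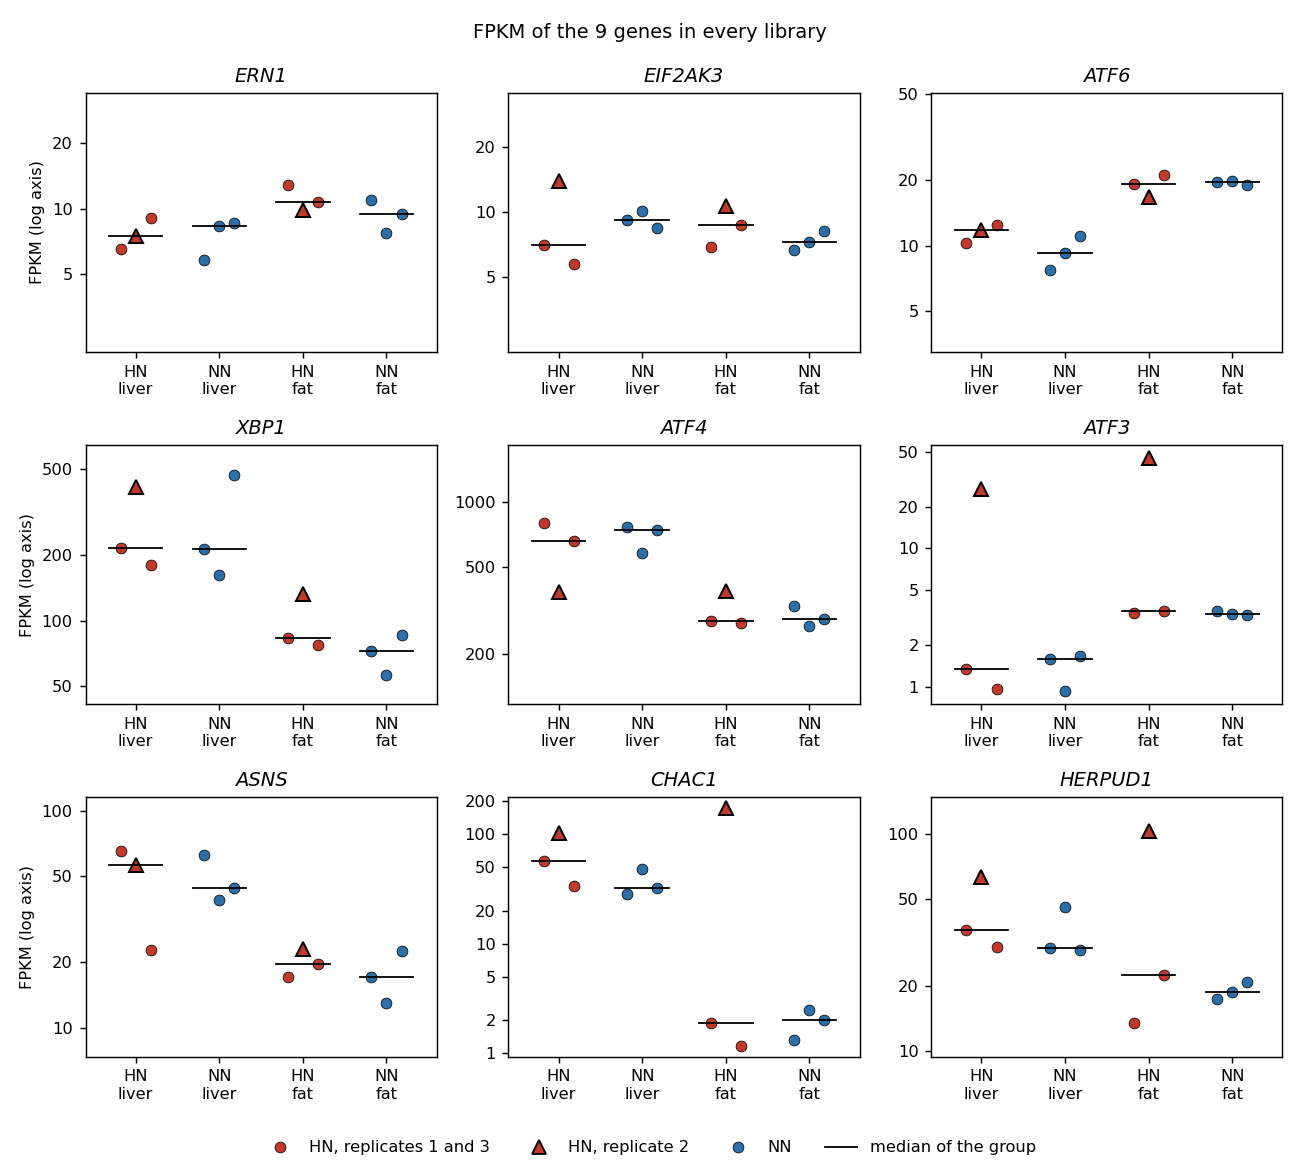
FPKM (log axis) of each of the 9 genes in the 12 libraries, by diet and tissue, with a line at the median of each group and HN replicate 2 drawn as a triangle. ATF3 in HN replicate 2 reached 26.85 FPKM in liver and 44.87 FPKM in fat, while its other 10 values lay between 0.93 and 3.54 FPKM.

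Among the sensors, no library of ERN1 or ATF6 was far from the others of its tissue, while EIF2AK3 was highest in HN replicate 2. ERN1 had 6.51, 7.53 and 9.07 FPKM in HN livers, against 5.81, 8.30 and 8.60 FPKM in NN livers, and 12.92, 9.91 and 10.70 FPKM in HN fats, against 10.94, 7.72 and 9.47 FPKM in NN fats. The diets overlapped in both tissues. LOC417414, the gene that RefSeq names ERN1, had 14.15, 9.12 and 7.58 FPKM in HN livers, against 12.31, 9.79 and 12.50 FPKM in NN livers. Its fats held 7.91, 13.99 and 10.01 FPKM on the HFD, against 9.06, 10.20 and 9.16 FPKM on the normal diet, again with overlap.

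EIF2AK3 had 7.01, 13.94 and 5.75 FPKM in HN livers, against 9.18, 10.06 and 8.43 FPKM in NN livers. In fat it had 6.90, 10.60 and 8.68 FPKM on the HFD, against 6.68, 7.24 and 8.13 FPKM on the normal diet. The highest value of each tissue was HN replicate 2, and in liver the other 2 HN values lay below all 3 NN values. ATF6 had 10.27, 11.76 and 12.39 FPKM in HN livers, against 7.70, 9.21 and 11.09 FPKM in NN livers, and 19.21, 16.81 and 21.22 FPKM in HN fats, against 19.71, 19.82 and 18.91 FPKM in NN fats. Every fat lay above every liver for ATF6, whichever the diet.

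The transcription factors differed from each other in which libraries were high. XBP1, whose spliced product drives genes of ER folding and secretion, had 216.05, 413.76 and 179.87 FPKM in HN livers, against 212.99, 162.91 and 468.96 FPKM in NN livers. One liver of each diet therefore lay far above the others. In fat XBP1 had 83.24, 132.42 and 76.85 FPKM on the HFD, against 72.57, 56.41 and 86.24 FPKM on the normal diet. ATF4, the factor that links eIF2 phosphorylation to amino acid supply genes, had 796.04, 384.90 and 658.73 FPKM in HN livers, against 764.43, 581.23 and 742.66 FPKM in NN livers. Its fats held 283.94, 387.96 and 276.64 FPKM on the HFD, against 330.02, 268.10 and 288.29 FPKM on the normal diet. HN replicate 2 was thus the lowest of the livers and the highest of the fats for ATF4, and its liver and fat values were nearly the same. ATF3, a stress-induced factor of the ATF/CREB family, had 1.33, 26.85 and 0.96 FPKM in HN livers, against 1.59, 0.93 and 1.67 FPKM in NN livers, and 3.40, 44.87 and 3.51 FPKM in HN fats, against 3.54, 3.38 and 3.30 FPKM in NN fats. The HN and NN values of ATF3 were alike except in HN replicate 2.

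The targets showed the same library most strongly in fat. ASNS, which encodes asparagine synthetase, had 65.04, 56.22 and 22.80 FPKM in HN livers, against 62.57, 38.67 and 44.22 FPKM in NN livers, and 17.16, 23.10 and 19.57 FPKM in HN fats, against 17.09, 13.04 and 22.61 FPKM in NN fats. Its diets overlapped and no library stood far out. CHAC1, which encodes an enzyme that breaks down glutathione, had 56.44, 103.18 and 33.73 FPKM in HN livers, against 28.68, 48.00 and 32.16 FPKM in NN livers. In fat CHAC1 had 1.90, 173.18 and 1.17 FPKM on the HFD, against 1.32, 2.50 and 2.04 FPKM on the normal diet. Of the 6 fats only HN replicate 2 was not below every liver, and it lay above all of them. HERPUD1, an ER membrane protein that acts in ER-associated degradation, had 36.01, 63.33 and 30.24 FPKM in HN livers, against 29.82, 46.22 and 29.12 FPKM in NN livers. Its fats had 13.44, 103.85 and 22.55 FPKM on the HFD, against 17.48, 18.84 and 20.82 FPKM on the normal diet, and here too HN replicate 2 was the single high one.

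The values of HN replicate 2 were then set against the other 5 libraries of its tissue, as a description of 1 liver and 1 fat library and without a test. In liver it was the highest of the 6 for 4 of the 9 genes (ATF3, EIF2AK3, CHAC1 and HERPUD1), against 15.3% of the 11278 tested genes. In fat it was the highest for 7 of the 9, all but ATF6 and ERN1, against 16.2% of 12394. In FPKM, ATF3 was 16.1 times the next highest library in liver and 12.7 times in fat, or 10.4 and 10.1 times on FPKM + 1. CHAC1 was 1.83 times the next library in liver and 69.3 times in fat (49.8 times on FPKM + 1), and HERPUD1 was 1.37 times in liver and 4.61 times in fat. The remaining ratios to the next library were at most 1.54, the value of XBP1 in fat, and EIF2AK3 had 1.39 and 1.22 in liver and fat. A ratio of at least 2 to the next library on the scale of FPKM + 1 was reached by 1 of the 9 genes in liver, where 1.88% of all tested genes reached it, and by 3 of the 9 in fat, where 1.23% did. The filter on a mean of 1 FPKM counted HN replicate 2, so these shares include genes that passed only through it. All 9 genes passed without it.

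**Figure D2:**
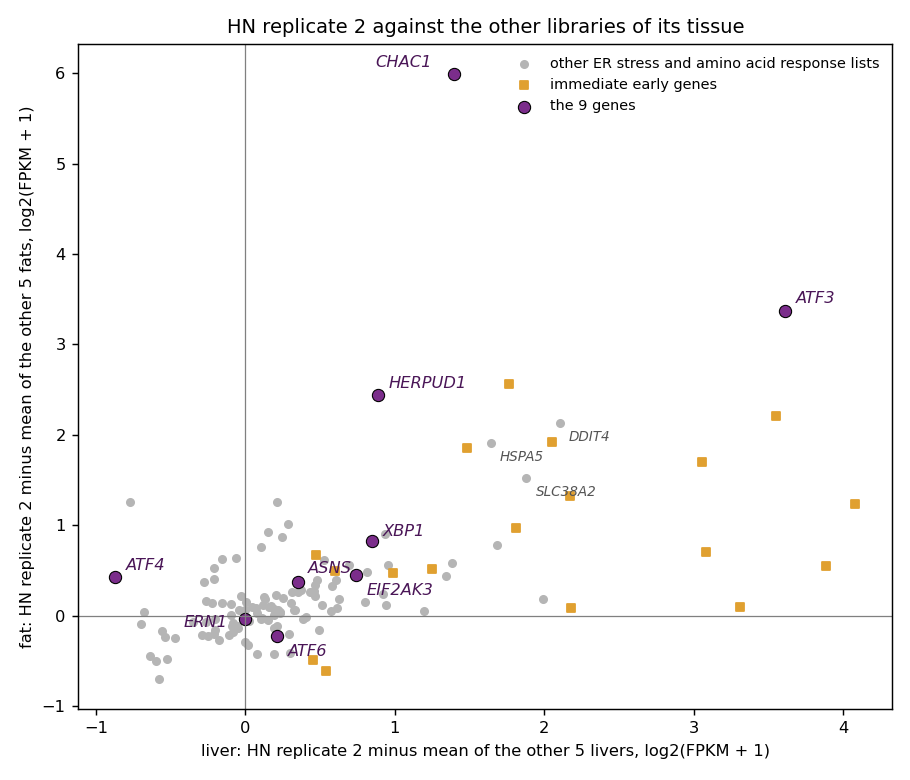
Difference of HN replicate 2 from the mean of the other 5 libraries of its tissue on log2(FPKM + 1), liver on the horizontal axis and fat on the vertical axis, for the 9 genes (labelled circles), immediate early genes (squares) and the other listed genes of these responses (grey points). ATF3 was high in both tissues, CHAC1 and HERPUD1 mainly in fat, and ERN1 and ATF6 lay near the origin.

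Other genes of these responses were set beside them, and HSPA5, DDIT4, SLC38A2, DDIT3 and TRIB3 are given, chosen after their values were seen. HSPA5, the main HSP70 chaperone of the ER (BiP), had 316.27, 533.12 and 159.25 FPKM in HN livers, against 137.07, 178.02 and 115.76 FPKM in NN livers, and 259.33, 985.92 and 345.08 FPKM in HN fats, against 221.35, 161.83 and 381.49 FPKM in NN fats. The second replicate was the highest HSPA5 value of both tissues. DDIT4, an inhibitor of mTORC1 that stress induces, had 11.73, 64.00 and 14.31 FPKM in HN livers, against 16.42, 12.72 and 15.94 FPKM in NN livers. In fat DDIT4 had 124.15, 615.34 and 124.64 FPKM on the HFD, against 146.05, 204.01 and 115.59 FPKM on the normal diet. SLC38A2, an amino acid transporter and an ATF4 target in mammals, had 22.94, 116.43 and 11.86 FPKM in HN livers, against 38.64, 42.57 and 60.88 FPKM in NN livers, and 53.75, 170.63 and 57.99 FPKM in HN fats, against 60.72, 63.18 and 57.90 FPKM in NN fats. DDIT4 and SLC38A2 were each high in this library alone, while HSPA5 was also above all NN livers in HN liver replicate 1. DDIT3, the CHOP transcription factor, was highest in the same library but by less, with 9.68 FPKM against 3.04 to 6.84 FPKM in the other livers and 20.44 FPKM against 11.03 to 16.63 FPKM in the other fats. TRIB3, a pseudokinase of the same branch, was listed at 0 in 11 libraries and at 0.05 FPKM in 1, and was not tested.

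By list, HN replicate 2 held the highest value for 14 of 22 ER chaperone and folding genes in liver and 9 of 22 in fat. NN fat replicate 3 was highest for 8 of these 22 genes in fat. For regulators and targets of the amino acid response HN replicate 2 was highest for 11 of 28 in liver and 10 of 27 in fat. Other genes of this list were lowest in its liver, such as CEBPG at 10.29, MTHFD2 at 6.37 and KLHL24 at 5.96 FPKM, chosen after their values were seen. The number of genes that were lowest there was not counted. Over all tested genes HN replicate 2 was highest for 15.3% in liver and 16.2% in fat. For cytosolic aminoacyl-tRNA synthetases the counts of HN replicate 2 were 4 of 19 in liver and 6 of 19 in fat. HN liver replicate 1 was highest for 9 of these 19 in liver. For eIF2 kinases, their phosphatase and eIF2B the counts of HN replicate 2 were 2 of 13 and 1 of 13. They were 6 of 19 and 5 of 19 for ER-associated degradation, and 3 of 11 and 1 of 11 for relatives of the sensors. The immediate early genes are transcription factors and feedback genes that respond to many stimuli within minutes. For them HN replicate 2 was highest for 15 of 18 in liver and 15 of 20 in fat. The 15 of 18 is raised by the filter on a mean of 1 FPKM. EGR2, FOSL2, NR4A3 and LOC100857380 passed it in liver only through HN replicate 2, and without that library 14 were tested. In fat 19 were tested without it. The summed level of the immediate early genes was 1801 FPKM in HN replicate 2 against 226 to 672 FPKM in the other livers. In fat it was 2359 FPKM against 1351 to 2080 FPKM in the other fats. Over both tissues, 51 of 10561 genes reached at least 2 times the next library in HN replicate 2, and ATF3 ranked 4 by the smaller of both ratios. The same filter applies to these counts, and NR4A3 and LOC100857380 are among the 51. ATF3 passed the filter without that library. Chosen after their values were seen, BAG3, a co-chaperone of HSP70, stood at 23.8 times the next library in liver and 13.2 times in fat, and DNAJB1, a cytosolic co-chaperone, at 20.8 and 6.22 times, on FPKM + 1.

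Marker lists of other cell types moved in part with this library. The 6 fibroblast and stellate cell markers summed to 9777 FPKM in fat of HN replicate 2, to 7590 and 4370 FPKM in the other HN fats, and to 3944 to 4264 FPKM in NN fats, with none of the 6 at 0. This sum was mostly collagen, with COL3A1 at 4386.09, COL1A1 at 2511.64 and COL1A2 at 1754.18 FPKM in fat of HN replicate 2. PDGFRB, a receptor of mesenchymal cells on the same list, was at 45.88 FPKM there, the lowest of the 6 fats, against 57.24 to 88.92 FPKM in the other 5. The 5 smooth muscle markers summed to 602 FPKM in that fat, against 234 to 426 FPKM in the other 5, and the 4 skeletal muscle markers to 37.6 FPKM, against 12.7 to 21.0 FPKM, with MYH1A at 0.02 FPKM. Of the skeletal muscle sum in that fat 34.56 FPKM came from ACTA1, and TNNT3 was at 1.52 FPKM, the lowest of the 6 fats. In liver the 6 macrophage markers summed to 627, 2169 and 2161 FPKM on the HFD and to 678, 1740 and 1050 FPKM on the normal diet. The 6 B and plasma cell markers summed to 43.27 FPKM in liver of HN replicate 2, against 11.49 to 31.09 FPKM in the other 5 livers. Of that sum 33.10 FPKM came from IGJ, against 4.52 to 17.67 FPKM in the other 5. CD79B was also highest there, at 3.84 FPKM. BLNK was lowest there, at 2.95 FPKM against 3.30 to 7.14 FPKM, and BLK, POU2AF1 and TNFRSF13B lay within the range of the other livers. The pancreatic marker CPA1 was at 0 in all libraries and PNLIP at 0.03 FPKM at most. By sum, markers of the main cell type of each tissue were lowest in HN replicate 2. The 7 hepatocyte markers came to 74322 FPKM in its liver, against 84256 to 97096 FPKM in the others. This rested on ALB at 19544.39 FPKM and AHSG at 1950.4 FPKM, which were lowest there. FGB and SERPINC1 were highest there, and APOA1, APOH and TTR lay within the range of the other livers. The 6 adipocyte markers came to 13934 FPKM in its fat, against 14801 to 19146 FPKM in the others. Of that sum 10767.15 FPKM came from FABP4, the only marker of this list that was lowest there. PPARG was highest there, and ADIPOQ, PLIN1, LPL and CIDEC lay within the range of the other fats. The 5 red cell markers came to 306 FPKM in its fat, against 424 to 1817 FPKM in the others. Their sum in its liver was not the lowest. The part of these cell types in the values above was not tested.

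The effect of the HFD in liver was tested with limma on log2(FPKM + 1), with Benjamini-Hochberg adjustment over all tested genes. None of the 9 genes passed an adjusted p of 0.05, and neither did any of the 11278 genes tested (0.0%), while 1349 had an unadjusted p under 0.05. In liver the log2 fold change of HN over NN was 1.08 ± 0.97 (SE) for ATF3 and 0.70 ± 0.41 for CHAC1, with adjusted p of 0.660 and 0.511. The remaining 7 lay between -0.24 (ATF4) and 0.28 (ATF6), and the smallest adjusted p of the 9 was that of CHAC1. Without HN replicate 2 the log2 fold change of ATF3 was -0.15 ± 0.22, that of CHAC1 0.30 ± 0.31 and that of EIF2AK3 -0.47 ± 0.15, the last with an unadjusted p of 0.0206 and an adjusted p of 0.450. No gene of the 9 had HN and NN livers that did not overlap, while this held for 21.1% of the tested genes. In an exact permutation test of 3 against 3 livers the smallest possible p is 0.1, and the 9 genes gave 0.2 to 1.0.

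The listed genes of the ER lumen lay mostly above 0 in the same comparison. Of 22 ER chaperone and folding genes, 20 had a positive log2 fold change in liver, with a median of 0.35 against -0.06 over all tested genes, and 20 of 22 and 0.21 without HN replicate 2. Of all 11278 genes tested in liver 4762 lay above 0 and 6516 below, or 5048 and 6219 of 11267 without HN replicate 2, and with each library rescaled by the median ratio of its genes to their geometric mean over libraries (median-ratio scaling) 6037 of 11257 lay above 0. None passed the test, with 7 at an unadjusted p under 0.05. MANF, a secreted ER stress protein, had the smallest p, with 162 ± 4.80 FPKM in HN livers, against 97.8 ± 13.2 FPKM in NN livers (SD over 3 livers of each diet), with an adjusted p of 0.382 by limma. DNAJB11, a co-chaperone of HSPA5, had 34.6 ± 2.10 FPKM in HN livers, against 25.0 ± 1.66 FPKM in NN livers, with an adjusted p of 0.392. The groups of both genes did not overlap.

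Of 19 ER-associated degradation genes, 12 lay above 0 with a median of 0.19 and none passed, and VCP, the ATPase that extracts proteins from the ER, had 81.2 ± 9.20 FPKM in HN livers, against 57.8 ± 3.80 FPKM in NN livers. SYVN1, the ubiquitin ligase of that route, had 31.0 ± 3.84 FPKM in HN livers, against 21.1 ± 3.64 FPKM in NN livers. Of 28 regulators and targets of the amino acid response, 17 lay below 0, with a median of -0.11, or 22 of 27 with a median of -0.32 without HN replicate 2, against -0.04 over all genes in that fit, and 14 of 27 under median-ratio scaling, and none passed. CBS, the first enzyme of transsulfuration, had 22.4 ± 2.10 FPKM in HN livers, against 36.3 ± 4.20 FPKM in NN livers (log2 fold change -0.67 ± 0.15, adjusted p = 0.392). Of the 13 eIF2 kinases and partners, 9 lay below 0 with none past the test, or 7 under median-ratio scaling. EIF2AK4 had 4.11 ± 0.868 FPKM in HN livers, against 5.72 ± 0.309 FPKM in NN livers, and IMPACT, an inhibitor of the GCN2 pathway, had 5.36 ± 0.672 FPKM in HN livers, against 9.05 ± 0.632 FPKM in NN livers, with adjusted p of 0.410 and 0.385. Of 19 cytosolic aminoacyl-tRNA synthetases 13 lay above 0, and none of them passed. SARS, the seryl-tRNA synthetase, had 160 ± 13.0 FPKM in HN livers, against 116 ± 6.36 FPKM in NN livers, and MARS, the methionyl-tRNA synthetase, had 84.9 ± 5.19 FPKM in HN livers, against 67.1 ± 2.35 FPKM in NN livers. Of 18 immediate early genes 13 lay above 0 with all livers, but 3 of 14 without HN replicate 2.

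In abdominal fat the 9 genes did not pass the test either. The log2 fold change of HN over NN was 1.82 ± 1.52 for CHAC1, 1.14 ± 0.84 for ATF3 and 0.72 ± 0.64 for HERPUD1, and the other 6 lay between -0.03 (ATF6) and 0.42 (XBP1). Adjusted p ranged from 0.799 to 0.949 over the 9. Without HN replicate 2 the values were -0.21 ± 0.26 for CHAC1, 0.02 ± 0.15 for ATF3 and -0.12 ± 0.22 for HERPUD1, so that CHAC1 and HERPUD1 changed sign and ATF3 lay near 0. Of 12394 genes tested in fat 1 was called (0.00807%), and 580 had an unadjusted p under 0.05. No gene of the 9 had HN and NN fats that did not overlap, against 10.3% of all tested genes.

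**Figure D3:**
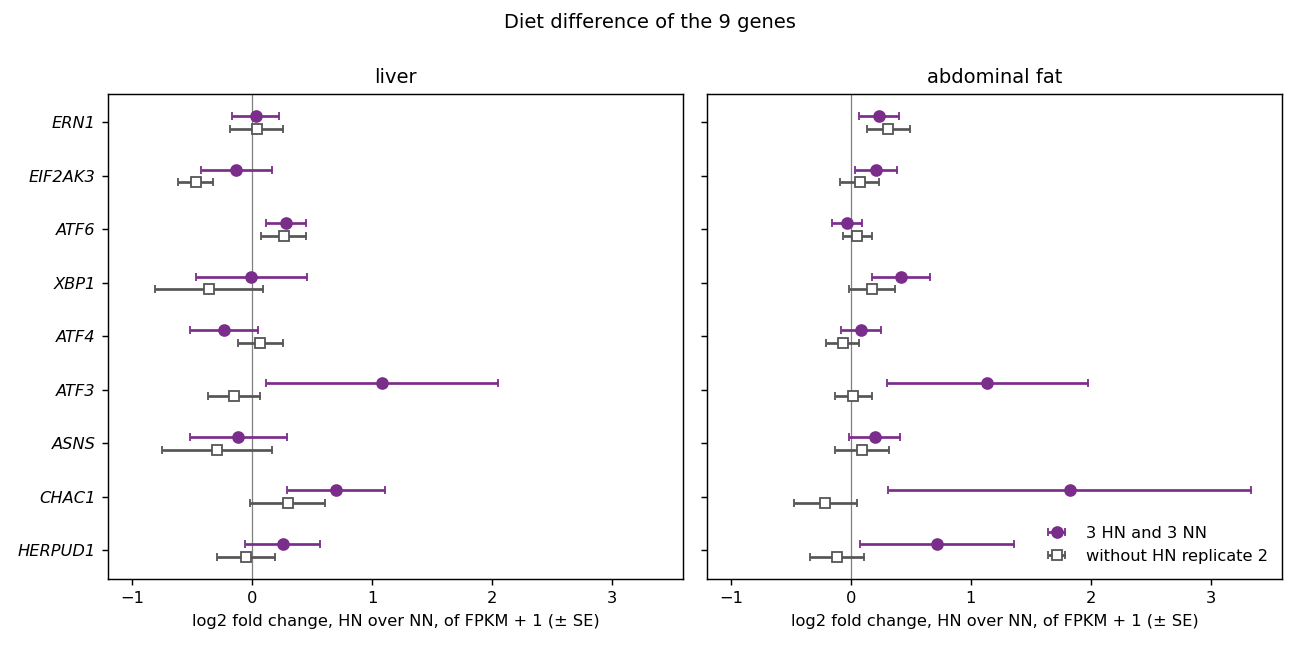
Log2 fold change of HN over NN (FPKM + 1, ± SE) for the 9 genes in liver (left) and abdominal fat (right), with 3 libraries per diet (circles) and without HN replicate 2 (squares). The circles of ATF3 lie at 1.08 in liver and 1.14 in fat, and the squares at -0.15 and 0.02.

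The lists gave no call in fat. Of 22 ER chaperone and folding genes, 19 lay above 0 with a median log2 fold change of 0.28, against -0.07 over all tested genes, and 19 of 22 with a median of 0.17 without HN replicate 2. Of all 12394 genes tested in fat 4629 lay above 0 and 7765 below, or 5227 and 7175 of 12402 without HN replicate 2, and under median-ratio scaling 6100 of 12393 lay above 0. TXNDC5, an ER thioredoxin, had 45.8 ± 5.18 FPKM in HN fats and 35.1 ± 5.51 FPKM in NN fats, and PPIB, an ER prolyl isomerase, had 518 ± 59.5 FPKM in HN fats and 404 ± 47.5 FPKM in NN fats, both with an adjusted p of 0.799. Of 27 amino acid response genes 17 lay above 0, or 13 of 26 without HN replicate 2. Of the 13 eIF2 kinases and partners, 11 lay below 0, or 8 under median-ratio scaling. None of the ER-associated degradation genes reached an unadjusted p under 0.05 in fat, and their median was -0.02, or 0.05 under median-ratio scaling.

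Whether the diet difference depended on the tissue was tested as an interaction over all 12 libraries. None of the 9 genes and none of the 12544 genes passed (0.0%), with 570 genes at an unadjusted p under 0.05. The difference of liver and fat log2 fold changes was -1.12 ± 1.80 for CHAC1 and -0.46 ± 0.81 for HERPUD1, and 0.51 ± 0.41 and 0.06 ± 0.35 without HN replicate 2 in both tissues. The other 7 genes lay between -0.42 (XBP1) and 0.31 (ATF6), with adjusted p of 0.998 for all 9. The standard errors leave differences of more than 1 log2 unit possible for CHAC1, ATF3 and HERPUD1. The same holds for XBP1 (± 0.57), ASNS (± 0.49), EIF2AK3 (± 0.36) and ATF4 (± 0.35). For ATF6 (± 0.20) and ERN1 (± 0.26) the standard errors are smaller, but differences of less than 1 log2 unit stay possible. A lack of a call is therefore no sign of equal responses for any of the 9 genes.

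Liver was next compared with fat within each diet, where most tested genes differed. On the normal diet 7 of the 9 genes were called, 5 higher and 2 lower in liver, while 76.0% of 12492 tested genes were called, 16.6% higher and 59.4% lower. CHAC1 showed the widest gap, with 36.3 ± 10.3 FPKM in NN livers and 1.95 ± 0.595 FPKM in NN fats and a log2 fold change of 3.64 ± 0.23 (adjusted p = 6.7e-06). XBP1 was higher by 1.83 ± 0.37, ASNS by 1.42 ± 0.24, ATF4 by 1.23 ± 0.14 and HERPUD1 by 0.82 ± 0.19, with adjusted p of 0.00300, 0.00110, 0.000168 and 0.00529. ATF6 was lower in liver by -1.0 ± 0.14 and ATF3 by -0.89 ± 0.16, with adjusted p of 0.000397 and 0.00175. EIF2AK3 (0.29 ± 0.12, adjusted p = 0.0585) and ERN1 (-0.28 ± 0.18, adjusted p = 0.193) did not pass, although EIF2AK3 did without NN fat replicate 3 (adjusted p = 0.0426). For 8 of the 9 genes, all but ERN1, the 3 NN livers and 3 NN fats did not overlap, against 78.5% of all tested genes. LOC417414 had 0.25 ± 0.13 with an adjusted p of 0.107. With all 12 libraries in 1 fit, whose spread includes HN replicate 2, HERPUD1 (adjusted p = 0.218) and ATF3 (0.445) did not pass.

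These signs depend on how the tissues are scaled. Over all tested genes the median log2 fold change of liver over fat was -0.65 on the normal diet and -0.64 on the HFD, and the share of all FPKM held by the top 10 genes was 21.8% to 25.6% in livers, against 10.1% to 11.8% in fats. Relative to that median, NN livers had CHAC1 at 4.29, XBP1 at 2.47, ASNS at 2.06, ATF4 at 1.88 and HERPUD1 at 1.46, EIF2AK3 at 0.94, ERN1 at 0.37, ATF3 at -0.25 and ATF6 at -0.35. Under median-ratio scaling of the libraries, EIF2AK3 was called higher in liver (0.97, adjusted p = 0.000259), ATF6 and ATF3 lost their calls (-0.29 with adjusted p = 0.105 and -0.38 with adjusted p = 0.0992), and ERN1 turned to 0.40 without a call. CHAC1, XBP1, ASNS, ATF4 and HERPUD1 were called higher in NN livers under the deposited scale, median-ratio scaling and quantile normalization alike.

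On the HFD 5 of the 9 genes were called, 3 higher and 2 lower in liver, against 65.6% of 12511 tested genes, 14.8% higher and 50.7% lower. XBP1 was higher by 1.41 ± 0.35, ASNS by 1.11 ± 0.38 and ATF4 by 0.91 ± 0.29, with adjusted p of 0.00998, 0.0356 and 0.0291. ATF6 was lower by -0.68 ± 0.16 and ERN1 by -0.49 ± 0.18, with adjusted p of 0.00676 and 0.0462, but both turned positive under median-ratio scaling, at 0.04 and 0.21, without a call. The values of LOC417414 overlapped between HN livers and HN fats. CHAC1 had 64.5 ± 35.4 FPKM in HN livers, against 58.8 ± 99.1 FPKM in HN fats (SD, n = 3 each), and its log2 fold change of 2.52 ± 1.58 did not pass (adjusted p = 0.197). ATF3 (-0.95 ± 1.26), HERPUD1 (0.35 ± 0.70) and EIF2AK3 (-0.05 ± 0.32) did not pass either. The HN livers and HN fats did not overlap for 3 of the 9 genes (XBP1, ATF6 and ERN1), against 70.8% of all tested genes.

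Without HN replicate 2 in both tissues, 6 of the 9 genes were called on the HFD. CHAC1 then stood at 4.15 ± 0.31 (adjusted p = 0.000568), ATF3 at -1.06 ± 0.20 (adjusted p = 0.00879) and HERPUD1 at 0.88 ± 0.29 (adjusted p = 0.0466), beside 3.64, -0.89 and 0.82 on the normal diet. XBP1 at 1.29, ATF4 at 1.37 and ATF6 at -0.79 were called as before, while ASNS (adjusted p = 0.130) and ERN1 (adjusted p = 0.0845) were not. Leaving out 1 library at a time, XBP1 and ATF6 were called in all 6 fits. ASNS was called only without HN liver replicate 3 (adjusted p = 0.000810), and it had an adjusted p of 0.0570 to 0.103 without any of the other 5 libraries. ATF4 was called without HN liver replicate 2 (adjusted p = 0.00376) or HN fat replicate 2 (adjusted p = 0.0324) but not without the others, where adjusted p was 0.0775 to 0.0916, and ERN1 was called only without HN liver replicate 3 (adjusted p = 0.0325), with 0.0544 to 0.158 otherwise. CHAC1 (4.56, adjusted p = 0.000451) and HERPUD1 (1.19, adjusted p = 0.0336) were called without HN fat replicate 2. The replicate number was also used as a block, although the pairing of liver and fat by number was less clear in HN than in NN libraries. With it ATF3 was called on the HFD (adjusted p = 0.00443), and ATF4 (0.0541) and ERN1 (0.0640) were not, so that 4 of the 9 genes passed. On the normal diet the block changed no call among the 9.

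**Figure D4:**
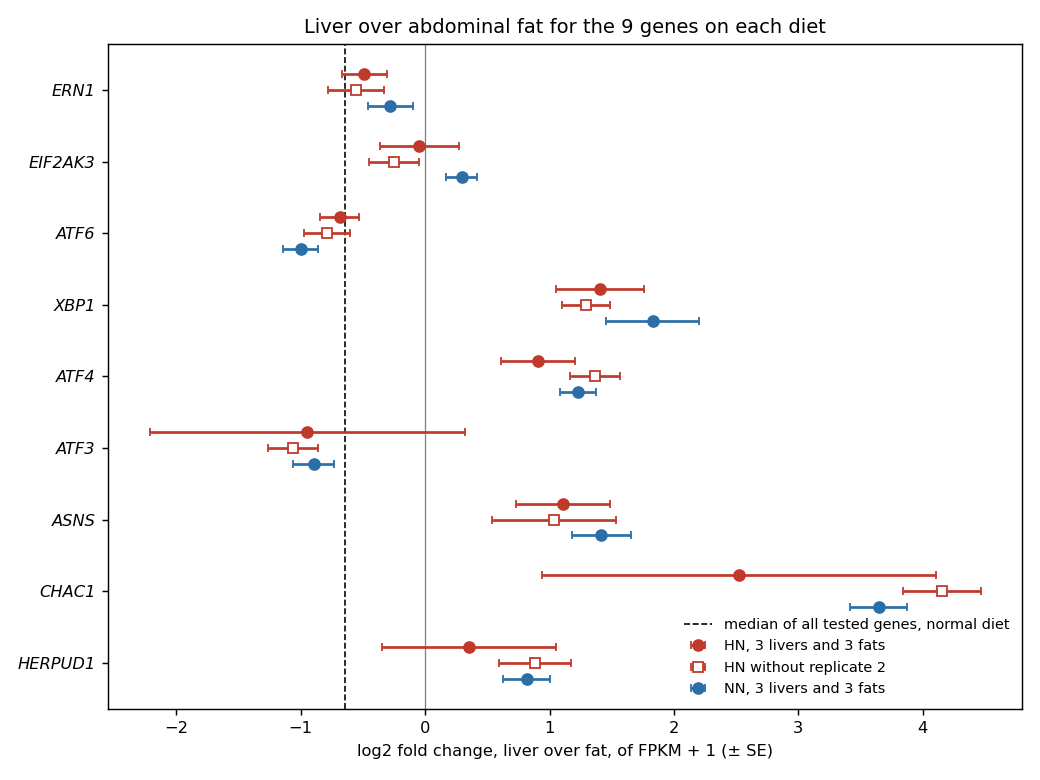
Log2 fold change of liver over fat (FPKM + 1, ± SE) for the 9 genes in HN birds, in HN birds without replicate 2 (open squares) and in NN birds, with a dashed line at the median of all tested genes on the normal diet. CHAC1 lies at 2.52, 4.15 and 3.64 in these 3 fits. ATF6 lies at -0.68, -0.79 and -1.0, of which the first is near the dashed line at -0.65.

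The counts of the wider lists in liver over fat depended on the scaling. On the deposited scale 14.8% of all tested genes were called higher and 50.7% lower in liver on the HFD, and 16.6% and 59.4% on the normal diet. Under median-ratio scaling 3756 of 12423 were called higher and 3440 lower on the HFD, and 4083 and 3893 of 12403 on the normal diet. Of 29 amino acid response genes tested on the HFD, 10 were called higher and 10 lower in liver on the deposited scale, and 15 and 7 under median-ratio scaling. On the normal diet the counts were 13 higher and 11 lower of 30 on the deposited scale, and 17 and 7 of 29 under median-ratio scaling. The serine synthesis enzymes led the higher side. PSPH had 7443 ± 3260 FPKM in NN livers and 11.7 ± 8.36 FPKM in NN fats, PHGDH had 855 ± 85.8 FPKM in NN livers and 2.15 ± 0.976 FPKM in NN fats, and PSAT1 had 84.4 ± 14.8 FPKM in NN livers and 0.730 ± 0.118 FPKM in NN fats. The lower side was led by VLDLR, a lipoprotein receptor, with 1.47 ± 0.476 FPKM in NN livers and 28.0 ± 4.61 FPKM in NN fats, and by DDIT4 with 15.0 ± 2.01 FPKM in NN livers and 155 ± 44.9 FPKM in NN fats. The same 5 genes led their sides on the HFD, with log2 fold changes of 9.24 for PSPH, 7.46 for PHGDH, 5.34 for PSAT1, -3.87 for VLDLR and -3.19 for DDIT4.

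For folding and degradation genes the balance of calls turned with the scaling. Of 22 ER chaperone and folding genes 4 were called higher and 6 lower in liver on the HFD, and 11 and 2 under median-ratio scaling. On the normal diet 2 were higher and 6 lower, and 12 and 3 under median-ratio scaling. Of 19 ER-associated degradation genes 4 were higher and 5 lower on the HFD, and 14 and 0 under median-ratio scaling. On the normal diet 2 were higher and 8 lower, and 11 and 1 under median-ratio scaling. P4HB, a protein disulfide isomerase, was higher in liver, with 519 ± 55.3 FPKM in HN livers, against 200 ± 18.8 FPKM in HN fats, and with 353 ± 60.9 FPKM in NN livers and 163 ± 19.1 FPKM in NN fats. TXNDC5 and the collagen-related isomerase FKBP14 were lower, with 7.19 ± 0.950 and 2.61 ± 0.921 FPKM in NN livers and 35.1 ± 5.51 and 13.2 ± 3.76 FPKM in NN fats. HERPUD2, the relative of HERPUD1, went the other way from it on the normal diet, with 20.3 ± 1.85 FPKM in NN livers and 44.7 ± 2.35 FPKM in NN fats (log2 fold change -1.10, adjusted p = 6.5e-05).

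Among relatives of the sensors, CREB3L3, an ER-bound factor of hepatocytes that is cut like ATF6, had 226 ± 82.7 FPKM in HN livers, against 0.193 ± 0.0252 FPKM in HN fats, and 243 ± 4.43 FPKM in NN livers and 0.313 ± 0.235 FPKM in NN fats. Its value in liver of HN replicate 2, 137.27 FPKM, was the lowest of the 6 livers. CREB3L1, its relative in matrix-secreting cells, was lower in liver, with 1.87 ± 0.843 FPKM in NN livers and 13.7 ± 2.55 FPKM in NN fats. MBTPS1, the protease that makes the first cut in ATF6, was also lower, with 12.1 ± 0.999 FPKM in NN livers and 37.9 ± 3.98 FPKM in NN fats. Of the 12 genes on this list 2 were higher and 6 lower in liver on each diet, but 6 and 3 on each diet under median-ratio scaling.

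Of the 13 eIF2 kinases and partners, 0 were called higher and 6 lower in HN livers, but 6 and 1 under median-ratio scaling. In NN livers 1 was higher and 8 lower, but 5 and 1 under median-ratio scaling. PPP1R15B, a subunit of the phosphatase that reverses eIF2 phosphorylation, was the higher one on the deposited scale, with 22.6 ± 1.59 FPKM in NN livers and 13.1 ± 1.69 FPKM in NN fats. EIF2S1, the phosphorylated subunit itself, had 18.5 ± 1.04 FPKM in NN livers and 39.2 ± 4.93 FPKM in NN fats. Of 19 cytosolic aminoacyl-tRNA synthetases 8 were called higher and 6 lower in HN livers, and 9 and 7 in NN livers, or 12 and 2 on each diet under median-ratio scaling. SARS had 116 ± 6.36 FPKM in NN livers and 36.8 ± 1.05 FPKM in NN fats, whereas KARS, the lysyl-tRNA synthetase, had 61.7 ± 2.99 FPKM in NN livers and 161 ± 10.4 FPKM in NN fats. Of 19 immediate early genes 11 were lower in HN livers and none higher, with 16 lower without HN replicate 2 and 7 under median-ratio scaling. In NN livers 16 of 18 were lower and none higher, with 12 lower under median-ratio scaling.

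The 9 genes did not move together across libraries. Levels were set on log2(FPKM + 1) with the mean of each of the 4 groups removed, and the 36 pairs were correlated over the 12 libraries, which share tissue samples and scaling. The median Pearson correlation was 0.14 with 21 of 36 pairs above 0, and -0.18 with 16 of 36 above 0 over the 10 libraries without HN replicate 2. CHAC1 and HERPUD1 correlated at 0.94 over 12 libraries and 0.37 over 10, ATF3 and CHAC1 at 0.78 and -0.33, and ATF3 and HERPUD1 at 0.82 and -0.50. EIF2AK3 and HERPUD1 kept a high value, with 0.69 over 12 and 0.87 over 10 libraries. ATF4 and its known target ASNS correlated at 0.10 over 12 and 0.66 over 10 libraries, and ATF3 and ATF4 at -0.27 and 0.88. Most of these values thus changed with 1 pair of libraries.

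The genes most like each member over the 12 libraries were sought among 9146 genes with a symbol. ATF3 was closest to BAG3 (Pearson 0.99), HTR3A (0.99) and DNAJB1 (0.98), CHAC1 to ST14 (0.98), ARHGEF26 (0.97) and CLDN1 (0.96), and HERPUD1 to UBE2J2 (0.99), TNFRSF6B (0.97) and ARHGEF26 (0.97). None of these was among the 3 closest over the 10 libraries without HN replicate 2. Of the rest, EIF2AK3 was closest to VCL (0.96), UTP6 (0.96) and IFNAR1 (0.96), and ASNS to ARFGAP3 (0.94), SLMAP (0.92) and RPN2 (0.92). ATF4 was closest to AGFG1 (0.98), LARP1 (0.95) and GET4 (0.92), and XBP1 to PSMD3 (0.97), SOCS3 (0.95) and SESTD1 (0.93). ATF6 was closest to IRF1 (0.95), SUPT5H (0.94) and PLEKHJ1 (0.93), and ERN1 to SPHK1 (0.91), UBE2D2 (0.90) and VAMP3 (0.89). PSMD3 for XBP1, at 0.97, and SPHK1 for ERN1, at 0.97, were also among the closest 3 without HN replicate 2. Values this high are found by the search over so many genes with few libraries and carry no test.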

How the data were processed

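RNA-seq of liver and abdominal fat was used from 12 libraries in 4 groups of 3, grouped by the sample titles. The authors deposited 1 table a library, which holds FPKM to 2 decimals beside the identifier and symbol of 18332 genes. The submitters' processing notes name HISAT2 2.0.4, Bowtie2 2.2.5 and RSEM 1.2.12, and the genome build is not given in the sources used here. FPKM already holds scaling for length and library size, and no count model was used.

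Genes whose FPKM averaged 1 or more in the libraries compared were tested with limma 3.58.1 in R 4.3.3 on log2(FPKM + 1), with a variance trend, two-sided tests and adjustment by Benjamini-Hochberg over all tested genes, called at 0.05. This scale understates the change of low genes. The scripts were tested on simulated data. Python 3.11.15 was used for the other steps. Gene names were checked against RefSeq GRCg7b by gene identifier.

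The members and lists were chosen with earlier results of these data known. Named from each list were, per comparison, up to 3 called genes in each direction with the largest fold change, of which some are given, or the 2 with the smallest p, and per member the 3 most alike genes. A result under this rule that is withheld is not reported here. HN replicate 2 was singled out after the values were seen.

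Liver and fat libraries of the same number and diet deviated together, with correlations of deviations from group means of 0.227, 0.398 and 0.121 in HN and 0.295, 0.274 and 0.234 in NN. Unlike numbers gave -0.372 to 0.192 in HN and -0.176 to -0.0858 in NN. HN liver replicate 3 was thus closer to HN fat replicate 1 (0.192) than to HN fat replicate 3. Same-numbered livers of unlike diets reached 0.399. The number was taken to pair liver and fat in a blocked alternative, with less ground in HN than in NN. Other alternatives were log2(FPKM + 0.1), no filter, no variance trend, median-ratio scaling, quantile normalization, 1 fit of all libraries and each library left out. No promoter or protein sequence was used here.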

Additional observations from a re-analysis of the deposited data

Results flagged for a closer look

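MTHFD2, a mitochondrial folate enzyme on the amino acid response list, was below in every HN liver and above in every HN fat. It had 9.11, 6.37 and 9.82 FPKM in HN livers, against 12.45, 11.01 and 16.98 FPKM in NN livers, and 7.04, 11.91 and 4.95 FPKM in HN fats, against 3.93, 2.66 and 4.34 FPKM in NN fats. The difference of the log2 fold changes in liver and fat was -1.51 ± 0.40 (SE), and -1.04 without HN replicate 2 in both tissues. It did not pass the interaction test by limma (adjusted p = 0.744). MTHFD2 was flagged because its diets separated fully, in opposite directions, in liver and fat. Over all tested genes the diets did not overlap for 21.1% in liver and 10.3% in fat. The share with opposite directions is not given here. With 3 libraries per group, no group was large enough for a check of single outlying libraries.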

How the results depend on the processing

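Of the 657 log2 fold changes of the 9 genes under alternatives, 576 kept their direction and side of the threshold, 28 lost a call, 9 gained one and 44 changed sign, 29 of the 44 with 1 library left out. With 1 library left out, the diet difference in liver lay between -0.15 and 1.76 for ATF3, -0.46 and 0.067 for ATF4, -0.36 and 0.44 for XBP1, -0.13 and 0.13 for ERN1, -0.47 and 0.10 for EIF2AK3, -0.39 and 0.34 for ASNS, and -0.052 and 0.47 for HERPUD1. In fat it lay between -0.071 and 0.17 for ATF4, -0.11 and 0.050 for ATF6, -0.21 and 2.95 for CHAC1, and -0.12 and 1.31 for HERPUD1. Liver over fat on the HFD lay between -2.18 and 0.17 for ATF3, -0.39 and 0.19 for EIF2AK3, and -0.24 and 1.19 for HERPUD1, with 2 to 5 of the 9 genes called. The interaction lay between -1.29 and 1.07 for ATF3, -0.78 and 0.021 for XBP1, -0.59 and 0.15 for ASNS, -2.25 and 0.92 for CHAC1, and -1.06 and 0.37 for HERPUD1, with 0 to 4 genes called in all. Without HN replicate 2 in both tissues the interaction was 0.14 for ATF4, 0.51 for CHAC1 and 0.065 for HERPUD1.

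Median-ratio scaling turned XBP1 in liver (diet) to 0.10, ATF6 in fat (diet) to 0.035, and, for liver over fat on the HFD, ATF6 to 0.042, ERN1 to 0.21 and EIF2AK3 to 0.65, with 3 genes called. It turned ERN1 on the normal diet to 0.40 and ATF3 in the interaction to 0.021, and log2(FPKM + 0.1) turned the last to 0.0024. Quantile normalization gave 0.015 for ATF6 in fat (diet), 0.20 for ERN1 and 0.66 for EIF2AK3 on the HFD with 2 genes called, and 0.42 for ERN1 on the normal diet. Without the filter 2 of the 9 were called on the HFD. In 1 fit of all 12 libraries 28 genes were called for diet in liver and 0 in fat, none among the 9. Why these values moved was not tested.

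Same-numbered HN and NN libraries did not all deviate together (correlations of 0.399, 0.0916 and -0.0404 in liver and 0.219, 0.0406 and 0.229 in fat), so the number pairs no diets. With the replicate block, diet in liver gave 0 calls and diet in fat 1, none among the 9. The interaction gave 3 calls with the block and 4 with a block within each diet, none among the 9, and liver over fat gave 8545 calls on the HFD and 9669 on the normal diet, beside 8202 and 9491. Values near 1 FPKM, such as ATF3 in liver and CHAC1 in fat, are the least certain, and their read depth is unknown.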
